A study of Mus musculus with 8 samples.

Results

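The unfolded protein response and the integrated stress response were followed through 10 genes, of 24532 gene rows in the deposited annotation. The rule names the genes by their function and uses no measured value. The members, the further lists and the tests were chosen with earlier results of these data known. Hspa5, Hsp90b1, Pdia4, Dnajb9 and Herpud1 stand for the chaperone branch, and Atf4, Ddit3, Trib3, Asns and Chac1 for the ATF4 branch. All 10 were found in each library. In liver 9 of them reached the expression filter, with Asns below it, and in subcutaneous adipose tissue all 10 did.

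The endoplasmic reticulum (ER) folds secreted and membrane proteins, and unfolded protein in its lumen is sensed by IRE1α (Ern1), ATF6 and PERK (Eif2ak3). IRE1α splices the Xbp1 messenger RNA and ATF6 is cleaved to a transcription factor, and both factors raise chaperones and degradation genes. PERK and other kinases phosphorylate eIF2α, which lowers general translation and raises that of ATF4, and ATF4 then drives Ddit3 (CHOP), Trib3, Asns and Chac1. Liver secretes much of the plasma protein and has abundant ER, and the response is often studied there in diet-induced obesity.

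The promoters of 5 of the 10 members matched a binding motif known for these branches, and these 5 are shown here. The 250 bases before the start of each gene were read from RefSeq (build GRCm38.p6), where 10 of 10 members matched by gene ID. For Herpud1 and Asns the RefSeq start differs from that of the deposited annotation. Capitals mark matches to ERSE (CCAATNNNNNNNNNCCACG), ERSE-II (ATTGGNCCACG) and CARE (TGATGNAA), each searched on both strands, and no match overlapped another.
Hspa5, chr2:34771840-34772089, plus strand: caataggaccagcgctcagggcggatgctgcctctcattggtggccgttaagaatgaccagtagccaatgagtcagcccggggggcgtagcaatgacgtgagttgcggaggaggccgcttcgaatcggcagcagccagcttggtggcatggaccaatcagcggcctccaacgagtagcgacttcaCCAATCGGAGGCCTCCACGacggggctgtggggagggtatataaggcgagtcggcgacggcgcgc
Hsp90b1, chr10:86705445-86705694, minus strand: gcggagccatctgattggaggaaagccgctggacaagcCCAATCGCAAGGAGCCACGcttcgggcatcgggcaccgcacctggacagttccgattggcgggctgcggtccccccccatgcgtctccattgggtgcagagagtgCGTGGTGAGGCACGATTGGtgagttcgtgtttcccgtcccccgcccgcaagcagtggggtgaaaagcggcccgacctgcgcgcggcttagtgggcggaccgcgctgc
Herpud1, chr8:94386179-94386428, plus strand: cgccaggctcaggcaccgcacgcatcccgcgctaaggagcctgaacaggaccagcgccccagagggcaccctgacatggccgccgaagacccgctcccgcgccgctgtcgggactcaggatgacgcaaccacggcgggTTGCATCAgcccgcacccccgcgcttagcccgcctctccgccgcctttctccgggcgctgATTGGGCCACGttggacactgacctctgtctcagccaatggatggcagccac
Asns, chr6:7693210-7693459, minus strand: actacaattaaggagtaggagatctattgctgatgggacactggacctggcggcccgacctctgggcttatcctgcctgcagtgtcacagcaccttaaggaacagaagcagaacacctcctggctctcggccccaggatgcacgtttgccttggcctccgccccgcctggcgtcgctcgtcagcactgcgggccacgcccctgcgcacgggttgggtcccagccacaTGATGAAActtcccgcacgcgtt
Chac1, chr2:119350992-119351241, plus strand: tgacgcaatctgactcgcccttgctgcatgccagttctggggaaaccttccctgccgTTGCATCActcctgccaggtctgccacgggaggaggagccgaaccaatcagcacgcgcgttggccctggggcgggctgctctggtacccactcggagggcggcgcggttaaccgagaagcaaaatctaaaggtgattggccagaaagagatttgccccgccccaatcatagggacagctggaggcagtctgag
ERSE, the motif known for ATF6 and XBP1, was in 2 of the 10 members, with 1 match in Hspa5 and 2 in Hsp90b1, and in 0.113% of 32851 RefSeq mouse promoters of the same length. ERSE-II was in Herpud1 and in 0.0304% of all promoters. CARE, the C/EBP-ATF element, was in Herpud1, Asns and Chac1 and in 3.45% of all promoters. The letters searched were not in the windows of Pdia4, Dnajb9, Atf4, Ddit3 and Trib3. A match is a description of the sequence, and nothing was measured at these sites.

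RNA of liver and of subcutaneous fat was sequenced in 8 libraries, 2 per genotype and tissue. All mice were male C57BL/6, fed a high-fat diet (HFD). The labels give 19 weeks of HFD from 6 weeks of age and an age of 24 weeks, which do not add up. The methods of the study state a shorter HFD. MKRN1-null mice lack the E3 ubiquitin ligase MKRN1 in the whole body. The line had been backcrossed to this strain, and by the methods of the study the WT mice were littermates from heterozygous parents. Because both genotypes had the HFD, no comparison with a normal diet is possible here. The methods of the study name 2 independent replicates per condition. Nothing in the labels says whether the libraries of a group came from different animals, so p-values measure the spread between these libraries. Liver and fat libraries carry the same numbers in the labels, which do not say whether they share animals. The main tests between the tissues took them as independent.

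Values are FPKM, the fragments per kilobase of transcript scaled to the mapped fragments of the library, summed over the transcripts of a gene. They can be compared between genes because they are per length. Depth was between 28.3 and 45.7 M fragments per library. Mkrn1 was at 9.42 and 10.1 FPKM in WT liver and at 2.86 and 2.21 in MKRN1-null liver. In adipose tissue it was at 16.8 and 19.3 in WT and at 4.58 and 2.90 in MKRN1-null libraries, so all 8 fitted their labels. The hepatocyte markers summed to between 53478 and 66525 FPKM in the liver libraries, and the adipocyte markers to between 16603 and 40329 in the adipose libraries. MKRN1-null adipose replicate 2 stood apart. Its 14 skeletal muscle markers summed to 111431 FPKM, 21.0% of all its FPKM, with none of the 14 at 0. The other 3 adipose libraries held 37.7 to 317 FPKM of these markers, with 0 to 3 of the 14 at 0. The adipocyte markers summed to 16603 FPKM in that library and to at least 34168 in the other 3. The members in adipose tissue are therefore given per library.

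Without the deletion, 3 of 5 genes of the chaperone branch were called higher in liver than in adipose tissue. In the ATF4 branch 4 of 5 genes were called lower. Of these, Asns could be called only as lower, and Atf4 and Chac1 were not called after a scaling that centres the libraries. Hsp90b1 (GRP94, an ER chaperone of secreted and membrane proteins) was at 238 and 328 FPKM in WT liver and at 142 and 163 in WT adipose tissue. Pdia4 (a disulphide isomerase) was at 76.1 and 116 FPKM against 35.8 and 40.1. Herpud1, a membrane component of ER-associated degradation, was at 214 and 187 FPKM against 39.2 and 36.5. These 3 genes of the chaperone branch passed as higher in liver by limma, a linear model with moderated variance, on log2(FPKM + 1), with an adjusted p under 0.05 by the Benjamini-Hochberg method over all 12799 genes tested. The differences were 0.87, 1.29 and 2.37 log2 units with adjusted p of 0.00788, 0.00359 and 4.1e-05. In all, 17.9% of genes tested were called higher in liver and 62.3% lower, with a median over all genes of -0.59. After median-of-ratios scaling, which centres the libraries, 4395 of 8786 called genes were higher in liver, in place of 2293 of 10265. Whether more cells of a type or more RNA per cell underlie such differences cannot be told apart in bulk tissue.

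The calls in the ATF4 branch were all lower in liver, the direction in which 62.3% of all genes tested were called. Asns, which makes asparagine, was at 0.61 and 0.31 FPKM in WT liver and at 21.7 and 24.2 in WT adipose tissue, a difference of -4.05 (adjusted p = 2.32e-05, limma). It reached the filter only through the WT adipose libraries, so it could be called only as lower in liver. With either of these libraries left out it was not tested. Ddit3 (CHOP) was at 8.14 and 14.3 FPKM against 42.1 and 48.2, a difference of -1.96 (adjusted p = 0.00156). Both were below the all-gene median of -0.59 and passed under median-of-ratios scaling and quantile normalization as well. Atf4 itself, the transcription factor of the branch, differed by -0.76 (adjusted p = 0.0391), and Chac1, a glutathione-degrading cyclotransferase, by -0.77 (adjusted p = 0.00351). Neither was called after median-of-ratios scaling, at -0.06 and -0.18, and Atf4 was not called without WT adipose replicate 1 (adjusted p = 0.0944) or replicate 2 (adjusted p = 0.0948). The other 3 members, Hspa5, Dnajb9 and Trib3, differed by between -0.09 and 0.25 and did not pass, so 7 of 10 members were called in WT tissue. Of these 3, Trib3 passed as higher in liver after median-of-ratios scaling (0.51, limma adjusted p = 0.0153), Hspa5 without WT liver replicate 1 (0.75, adjusted p = 0.00504), and Dnajb9, as lower, without WT liver replicate 2 (-0.37, adjusted p = 0.0390). Hspa5 was the most abundant member in WT adipose tissue in both libraries (232 and 233 FPKM). In WT liver the libraries of Hspa5, at 195 and 393 FPKM, lay on both sides of those of Hsp90b1 and of the higher one of Herpud1, so that the order of Hspa5 among these 3 genes was not beyond its spread.

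**Figure D1:**
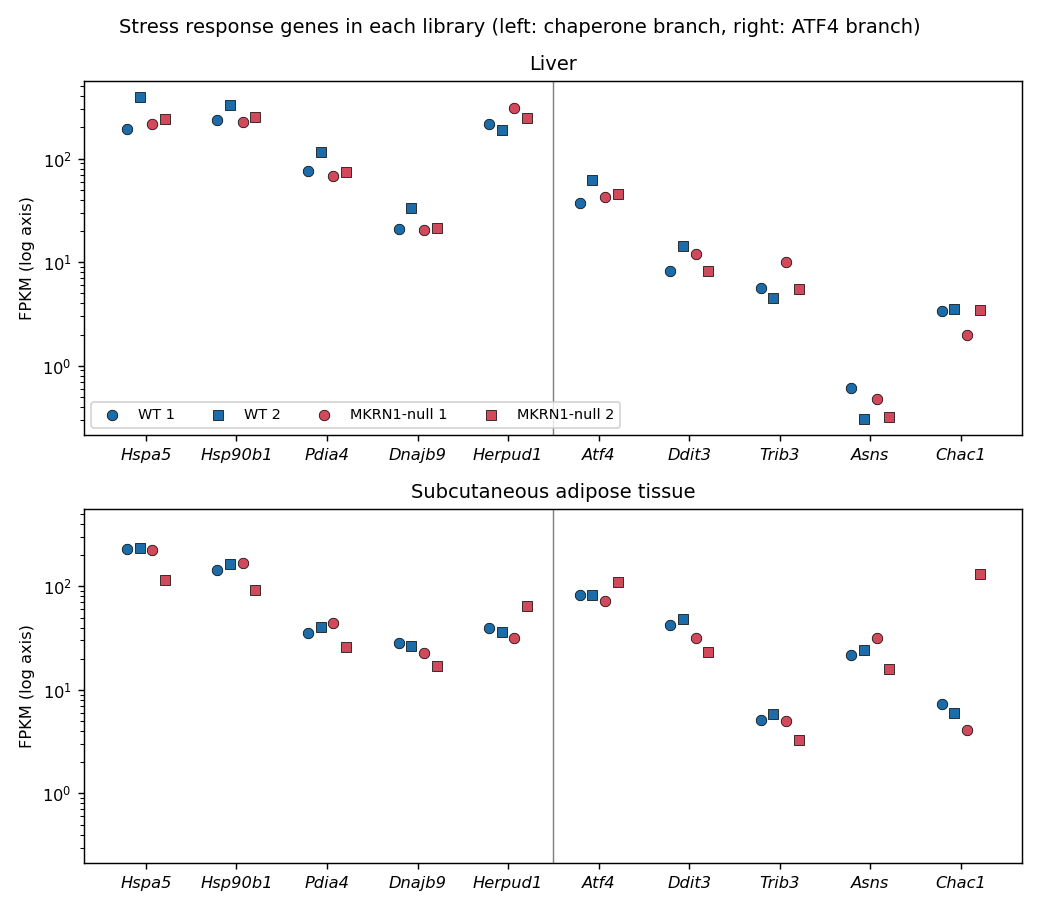
FPKM of the 10 genes on a log axis in each of the 4 liver libraries (top) and the 4 subcutaneous adipose libraries (bottom), circles for replicate 1 and squares for replicate 2, blue for WT and red for MKRN1-null. In liver the square of WT stands above the other 3 libraries for Hspa5, Hsp90b1, Pdia4, Dnajb9, Atf4 and Ddit3, and in adipose tissue Chac1 lies at 132 FPKM in MKRN1-null replicate 2 and at 4.11 to 7.30 in the other 3 libraries.

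The first comparison within a tissue asked whether the response differed between MKRN1-null and WT liver on the HFD. None of the 9 members tested passed an adjusted p under 0.05, although 19.5% of all 10822 genes tested did, 2.51% as higher and 16.9% as lower. The 5 chaperone genes had a median difference of -0.27 and the 4 tested genes of the ATF4 branch one of -0.12, beside a median of -0.17 over all genes. At an unadjusted limma p under 0.05 there were 4278 genes and 1 member, Herpud1. After median-of-ratios scaling 440 genes were called higher and 804 lower, in place of 272 and 1834, and again 0 members.

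Hspa5 encodes BiP, the master chaperone of the ER lumen that holds the sensors inactive. It was at 195 and 393 FPKM in WT and at 216 and 243 in MKRN1-null liver. Both MKRN1-null libraries lay between the WT libraries, and the difference was -0.27 ± 0.34 (SE, n = 2 against 2, limma adjusted p = 0.591) with a 95% interval from -1.15 to 0.61. Hsp90b1 was at 238 and 328 FPKM in WT and at 226 and 251 in MKRN1-null liver, also overlapping, with a difference of -0.23 ± 0.17 (SE, limma adjusted p = 0.381). Dnajb9 (ERdj4, a BiP cochaperone that is a target of spliced XBP1) was at 21.0 and 33.3 FPKM in WT and at 20.5 and 21.5 in MKRN1-null liver. One MKRN1-null library was just above WT replicate 1, so the groups overlapped, and the difference was -0.32 ± 0.22 (SE, limma adjusted p = 0.330).

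Pdia4 was the one member with both MKRN1-null libraries below both WT libraries. It was at 76.1 and 116 FPKM in WT and at 68.4 and 74.9 in MKRN1-null liver, a difference of -0.39 ± 0.21 (SE, limma adjusted p = 0.238). The gap between the groups was small beside that between the WT libraries. Among all genes 57.5% had both MKRN1-null libraries below both WT libraries. Pdia4 lies on chromosome 6, 8.38 Mb from Mkrn1, and whether sequence linked to the deletion differs at Pdia4 was not tested.

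Herpud1 ran against the other chaperone genes. It was at 214 and 187 FPKM in WT and at 309 and 245 in MKRN1-null liver. Both MKRN1-null libraries were above both WT libraries, which held for 11.8% of all genes. The mean level was 1.38 times that of WT, and the difference was 0.46 ± 0.15 (SE, 95% interval 0.08 to 0.84, limma adjusted p = 0.0889). Its direction was kept under median-of-ratios scaling (0.67, adjusted p = 0.0534), where it passed the study thresholds given below, and under quantile normalization (0.51), and with any 1 library left out it lay between 0.29 and 0.63. Herpud1 carries both an ERSE-II and a CARE match in the window shown.

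In the ATF4 branch, Atf4 was at 36.9 and 62.6 FPKM in WT and at 42.7 and 45.3 in MKRN1-null liver. The MKRN1-null libraries again fell between the WT libraries, with a difference of -0.13 ± 0.25 (SE, limma adjusted p = 0.744). Ddit3 was at 8.14 and 14.3 FPKM in WT and at 12.04 and 8.21 in MKRN1-null liver, a difference of -0.11 ± 0.30 (SE, limma adjusted p = 0.816). For both genes the sign turned under median-of-ratios scaling, to 0.08 and 0.09.

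Trib3, a pseudokinase that binds AKT, was at 5.64 and 4.55 FPKM in WT and at 9.94 and 5.56 in MKRN1-null liver, so that only MKRN1-null replicate 1 stood above WT. Its difference was 0.48 ± 0.27 (SE, limma adjusted p = 0.241). Chac1 was at 3.41 and 3.51 FPKM in WT and at 1.97 and 3.49 in MKRN1-null liver. One MKRN1-null library was at the WT level and the other below it, with a difference of -0.29 ± 0.21 (SE, limma adjusted p = 0.361). Asns lay between 0.31 and 0.61 FPKM in all 4 libraries, below the filter, and was not tested.

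The study thresholds here are an unadjusted limma p of at most 0.05 and an absolute log2 change of at least 0.58. The study had set the same P limit on permutation p-values that it adjusted and combined. At the thresholds used here 0 of 9 members were called in liver. Of all genes 15.6% were, 2.25% as higher and 13.4% as lower. Single libraries moved this count, but a fit without a library leaves 1 in its group, so only differences are given. Without WT replicate 1, Hspa5, Pdia4 and Dnajb9 differed by -0.77, -0.69 and -0.64. Without WT replicate 2, the same 3 differed by 0.23, -0.09 and -0.0014. Without MKRN1-null replicate 2, Herpud1, Trib3 and Chac1 differed by 0.63, 0.85 and -0.59.

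**Figure D2:**
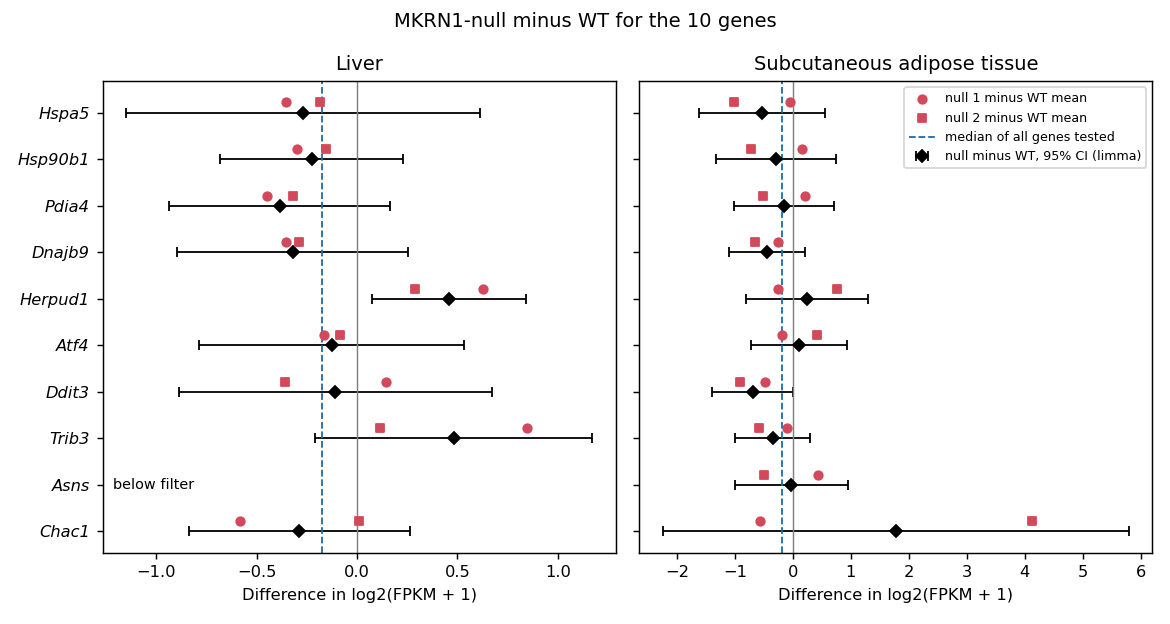
MKRN1-null minus WT in log2(FPKM + 1) for each gene in liver (left) and subcutaneous adipose tissue (right), on axes of different width. Black diamonds and bars give the limma estimate with its 95% interval, red circles and squares each MKRN1-null library minus the WT mean, and the dashed line the median of all genes tested (-0.17 and -0.20). Only Herpud1 in liver has an interval that leaves out 0 (0.08 to 0.84), and in adipose tissue the 2 red points of Chac1 lie at -0.57 and 4.13.

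The WT livers differed from each other in 6 of the members by more than most genes did. WT replicate 2 was above replicate 1 by 1.01 log2 units for Hspa5, 0.75 for Atf4, 0.74 for Ddit3, 0.64 for Dnajb9, 0.60 for Pdia4 and 0.46 for Hsp90b1. These 6 values lay outside the middle 90% of all genes tested, which ran from -0.49 to 0.33 between the same libraries. Herpud1, Trib3 and Chac1 differed by -0.19, -0.26 and 0.03, inside that range. Other ER folding genes went the same way, with 18 of 20 higher in WT replicate 2 and a median of 0.23, as did all 10 cytosolic heat shock genes (median 0.32) and all 12 cytosolic tRNA synthetases (median 0.20), beside a median of -0.05 over all genes. Other lists did not. The other ATF4 and CHOP targets had a median of -0.14 with 6 genes higher in WT replicate 2, the amino acid transporters -0.26 with 2 higher, the transducers -0.04 with 6 higher, and the mitochondrial chaperones and proteases 0.04. Between the MKRN1-null livers, replicate 2 was above replicate 1 by 0.07 to 0.17 for Hspa5, Hsp90b1, Pdia4, Dnajb9 and Atf4. Herpud1, Ddit3, Trib3 and Chac1 differed there by -0.34, -0.50, -0.74 and 0.59, outside the middle 90% of all genes, from -0.32 to 0.29, so a wide spread was not limited to the WT livers. The summed FPKM of the chaperone branch was 744 and 1057 in WT and 841 and 836 in MKRN1-null liver, and that of the macrophage markers 174 and 100 in WT and 67.7 and 74.7 in MKRN1-null liver. The part of other cell types in these values was not tested.

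**Figure D3:**
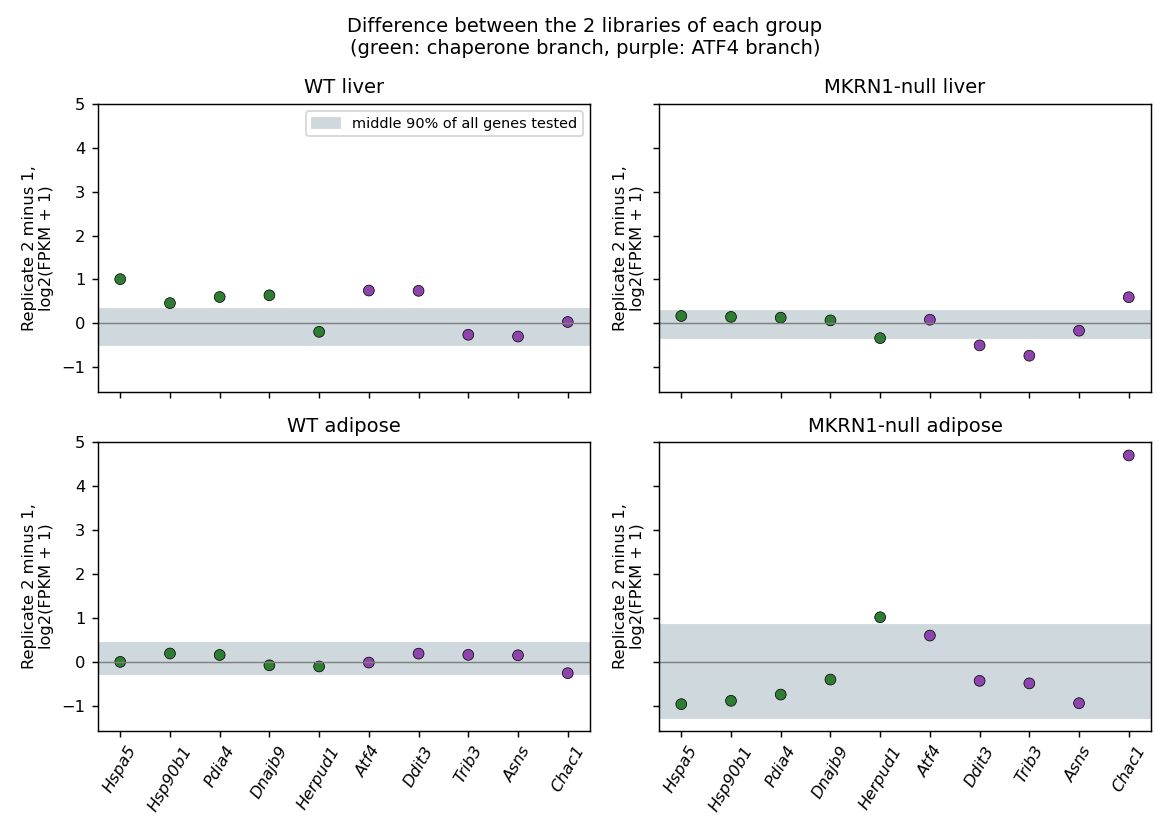
Replicate 2 minus replicate 1 in log2(FPKM + 1) for each gene in the 4 groups, green for the chaperone branch and purple for the ATF4 branch, over a grey band that holds the middle 90% of all genes tested. In WT liver 6 of the 10 genes lie above the band, in WT adipose tissue all lie within -0.25 and 0.19, and in MKRN1-null adipose tissue Chac1 stands at 4.70.

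The same question in subcutaneous adipose tissue gave 0 of 10 members at an adjusted p under 0.05 and 0% of all 12164 genes tested by limma. At an unadjusted p under 0.05 there were 785 genes and 0 members. At the study thresholds 6.07% of all genes were called, 0.707% as higher and 5.36% as lower, and 0 of 10 members. After median-of-ratios scaling 156 genes passed these thresholds as higher and 494 as lower, in place of 86 and 652. Both MKRN1-null libraries were below both WT libraries for 4 members, Hspa5, Dnajb9, Ddit3 and Trib3, beside 36.1% of all genes, and above them for 0 members, beside 9.03%.

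The WT adipose libraries differed by at most 0.25 log2 units for any member. Hspa5 was at 232 and 233 FPKM in WT, at 224 in MKRN1-null replicate 1 and at 115 in MKRN1-null replicate 2. Hsp90b1 was at 142 and 163 in WT, at 169 in MKRN1-null replicate 1 and at 91.5 in replicate 2. Pdia4 was at 35.8 and 40.1 in WT and at 44.1 and 26.0 in the MKRN1-null libraries. Hsp90b1 and Pdia4 were below the WT range only in the library rich in muscle markers, and Hspa5 was far below it only there. Their differences were -0.53 ± 0.42, -0.29 ± 0.39 and -0.15 ± 0.33 (SE, limma adjusted p = 0.684, 0.767 and 0.850).

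Dnajb9 was at 28.2 and 26.8 FPKM in WT and at 23.0 and 17.2 in MKRN1-null libraries, a difference of -0.45 ± 0.25 (SE, limma adjusted p = 0.680). Both MKRN1-null libraries were lower, with replicate 2 the lower of the pair. Herpud1 was again the exception of its branch. It was at 39.2 and 36.5 FPKM in WT and at 31.4 and 64.7 in MKRN1-null libraries, below WT in replicate 1 and above it in replicate 2, with a difference of 0.25 ± 0.40 (SE, limma adjusted p = 0.803). The summed FPKM of the chaperone branch was 478 and 499 in WT and 492 and 314 in MKRN1-null adipose tissue.

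Of the ATF4 branch, Ddit3 had the adipose difference closest to the thresholds. It was at 42.1 and 48.2 FPKM in WT and at 31.9 and 23.5 in MKRN1-null libraries. Both MKRN1-null libraries were below both WT libraries, at 0.614 times the WT mean, and the difference was -0.70 ± 0.27 (SE, 95% interval -1.40 to 0.01, limma adjusted p = 0.680). Ddit3 passed the study thresholds with TPM, with no filter, with no trend, after rescaling without the muscle markers (-0.63) and without MKRN1-null replicate 1 (-0.91). Trib3 was at 5.09 and 5.82 FPKM in WT and at 4.98 and 3.27 in MKRN1-null libraries, a difference of -0.35 ± 0.25 (SE, limma adjusted p = 0.680). For Trib3 the MKRN1-null replicate 1 was just under the lower WT library. Atf4 was at 82.5 and 81.9 FPKM in WT and at 71.7 and 109 in MKRN1-null libraries. Asns was at 21.7 and 24.2 in WT and at 31.4 and 15.9 in MKRN1-null libraries. For both, the MKRN1-null libraries lay on opposite sides of the WT range, and the differences were 0.11 ± 0.32 and -0.03 ± 0.37 (SE, limma adjusted p = 0.894 and 0.978).

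Chac1 had the widest spread of any member. It was at 7.30 and 5.97 FPKM in WT, at 4.11 in MKRN1-null replicate 1 and at 132 in MKRN1-null replicate 2. The difference of 1.78 ± 1.54 (SE, 95% interval -2.25 to 5.80, limma adjusted p = 0.692) rests on that library, and without it Chac1 was at -0.57. In the same library Atf4 and Herpud1 were the highest of the 4 adipose libraries, and Ddit3, Trib3, Asns, Hspa5, Hsp90b1, Pdia4 and Dnajb9 were the lowest. Its skeletal muscle markers stood at 111431 FPKM against 37.7 to 317 in the other 3, and after rescaling to the FPKM outside these markers Chac1 differed by 1.85 and Hspa5 by -0.46. The part of muscle RNA beyond these markers was not tested.

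With MKRN1-null replicate 1 left out, so that the muscle-rich library alone was set against WT, all 10 members passed an adjusted p under 0.05. Herpud1 (0.76), Atf4 (0.41) and Chac1 (4.13) were called higher and the other 7 lower. In that fit 52.5% of 12004 genes passed, and the lone library is assumed to vary as the WT libraries do. With MKRN1-null replicate 2 left out, 0 members were called, and Hspa5 was at -0.05, Hsp90b1 at 0.15, Pdia4 at 0.22, Ddit3 at -0.48 and Trib3 at -0.11.

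Upstream of the members, the transducers are the sensors, XBP1 and the eIF2α kinases and phosphatase subunits. Eif2ak3 (PERK) was at 6.20 and 6.94 FPKM in WT and at 3.48 and 3.37 in MKRN1-null liver. The MKRN1-null libraries were at 0.521 times the WT mean, well apart from WT, and Eif2ak3 fell by 0.77 (SE 0.10, limma adjusted p = 0.0168). It kept its direction and passed under median-of-ratios scaling (-0.60, adjusted p = 0.0340). It did not pass without MKRN1-null replicate 1 (adjusted p = 0.0696) or replicate 2 (adjusted p = 0.106). In adipose tissue it was at 7.94 and 7.56 FPKM in WT and at 6.84 and 3.63 in MKRN1-null libraries, a difference of -0.54 ± 0.31 (SE, limma adjusted p = 0.680). Eif2ak3 lies on chromosome 6, 31.4 Mb from Mkrn1, and whether sequence linked to the deletion differs there was not tested.

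Ern1 (IRE1α) was at 7.53 and 9.12 FPKM in WT and at 7.13 and 9.60 in MKRN1-null liver, with full overlap. Atf6 was at 12.1 and 11.3 FPKM in WT and at 10.3 and 9.67 in MKRN1-null liver, a difference of -0.21 ± 0.09 (SE, limma adjusted p = 0.154) that shrank to -0.01 under median-of-ratios scaling. Ppp1r15a (GADD34), the inducible eIF2α phosphatase subunit, was at 6.98 and 7.36 FPKM in WT and at 6.60 and 7.30 in MKRN1-null liver. In adipose tissue WT replicate 1 alone was high, at 33.7 FPKM, and the other 3 libraries reached at most 14.3. Of the 13 transducers tested in liver, 1 was called, as lower, beside 16.9% of all genes, and their median was -0.19 beside -0.17, with 1 called higher and 1 lower after median-of-ratios scaling. In adipose tissue 0 of 13 were called and the median was -0.25.

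IRE1α removes 26 bases from the Xbp1 transcript, which shifts the reading frame to that of the active factor. The segment lies at chr11:5524282-5524307 in the coding sequence (GRCm38, the build of the files) and is printed in capitals, with 20 bases of exon on either side read from the GENCODE M21 transcript.
Xbp1, chr11:5524262-5524327, plus strand: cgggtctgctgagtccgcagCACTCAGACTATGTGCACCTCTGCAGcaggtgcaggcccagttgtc
The deposited annotation holds a form with and a form without this segment, and StringTie divided the reads between them. Total Xbp1 was at 66.3 and 90.4 FPKM in WT and at 93.4 and 159 in MKRN1-null liver. Both MKRN1-null livers were above both WT livers, with a difference of 0.65 ± 0.29 (SE, limma adjusted p = 0.172). After median-of-ratios scaling it was 0.86 (adjusted p = 0.139) and passed the study thresholds. The spliced form made up 9.997% and 10.3% of it in WT and 4.72% and 12.3% in MKRN1-null liver, so that the MKRN1-null livers lay on both sides of WT. In FPKM the spliced form was at 6.63 and 9.27 in WT and at 4.41 and 19.5 in MKRN1-null liver. In adipose tissue the share was 5.65% and 5.69% in WT and 6.08% and 4.64% in MKRN1-null libraries, again on both sides. These shares are estimates from reads that the forms mostly have in common, and no interval can be given without counts.

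The further genes of the response were taken as lists. Of 15 tested of the other ATF4 and CHOP targets in liver, 0 were called higher and 4 lower, with a median of -0.44 beside -0.17 for all genes, of which 2.51% were called higher and 16.9% lower. Adipocyte and macrophage markers were lower in the same MKRN1-null livers. The adipocyte markers summed to 172 and 158 FPKM in WT and to 44.3 and 27.8 in MKRN1-null liver. None of the 8 was at 0, but 4 were below 1 FPKM in each liver library. Of the 4 tested, 3 were called lower, with a median of -1.65. Of the 8 hepatocyte markers 3 were called higher and 0 lower, with a median of 0.31. Of the 6 macrophage markers, whose sums are given above, 3 were called lower, with a median of -1.05 and none at 0. The part of such cell types in the list results in liver was not tested. Nupr1, a stress-induced nuclear protein, was at 6.93 and 6.12 FPKM in WT and at 1.39 and 1.46 in MKRN1-null liver, and fell by 1.63 (SE 0.10, limma adjusted p = 0.00824). Atf3, a stress-induced repressor, was at 4.22 and 3.74 FPKM in WT and at 1.10 and 1.75 in MKRN1-null liver, and fell by 1.05 (SE 0.16, limma adjusted p = 0.0222). In both genes the groups were well apart. The other 2, outside the rule and named after their values were seen, were Psph of serine synthesis (-0.58, adjusted p = 0.0353) and the mitochondrial Pck2 (-0.56, adjusted p = 0.0399). After median-of-ratios scaling 1 gene of the list was called higher and 2 lower. Fgf21, a hormone secreted by liver, was at 15.7 and 21.1 FPKM in WT and at 9.42 and 3.01 in MKRN1-null liver. Ddit4 (REDD1), an inhibitor of mTORC1, was at 8.82 and 3.99 in WT and at 2.82 and 1.70 in MKRN1-null liver. Fgf21 and Ddit4 passed the study thresholds alone, by -1.57 and -1.13 (limma adjusted p = 0.0769 and 0.0909). Fgf21 did not pass them without WT replicate 2 (-1.37) and ran from -2.26 to -0.88 with 1 library left out, and Ddit4 did not pass without WT replicate 1 (-0.64) or MKRN1-null replicate 2 (-0.87).

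Amino acid handling is another arm of ATF4 output. Of 5 transporters tested in liver, 2 were called, both lower, beside 16.9% of all genes, and 1 after median-of-ratios scaling. Slc1a4 was at 2.86 and 4.45 FPKM in WT and at 1.04 and 0.71 in MKRN1-null liver, and fell (log2 difference of -1.30, SE 0.20, limma adjusted p = 0.0230). Slc1a5, a glutamine transporter, fell by 0.66 (limma adjusted p = 0.0331) at levels of 0.54 to 1.68 FPKM. It reached the filter only through the WT livers, so it could be called only as lower. With either WT liver left out it was not tested. Of 12 cytosolic tRNA synthetases 0 were called higher and 4 lower, with a median of -0.31, and 1 was called lower after median-of-ratios scaling. The 4 were Lars, Cars, Gars and Nars, at -0.59, -0.56, -0.45 and -0.36 (limma adjusted p between 0.0190 and 0.0477).

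Of 20 other ER folding genes tested in liver 1 was called, as lower, beside 16.9% of all genes, with a median of -0.18. It was Dnajc10, a disulphide reductase of ER-associated degradation. Dnajc10 was at 9.03 and 8.98 FPKM in WT and at 5.37 and 4.75 in MKRN1-null liver, and fell by 0.73 (SE 0.09, limma adjusted p = 0.0176). Of 20 genes of ER-associated degradation and translocation 2 were called, both lower, Srp54a (-0.39) and Derl1 (-0.36), with limma adjusted p of 0.0487 and 0.0424. Outside the ER, 2 of 10 cytosolic heat shock genes were called lower, a share near the 16.9% of all genes, with a median of -0.32. Hspb1, a small heat shock protein, was at 63.1 and 77.3 FPKM in WT and at 21.0 and 24.7 in MKRN1-null liver, and fell by 1.58 (SE 0.14, limma adjusted p = 0.0109). Hspa1a was at -0.67 (limma adjusted p = 0.0296), and Hspa1b and Hsp90aa1 passed the study thresholds alone, at -0.62 and -0.58. After median-of-ratios scaling neither passed, at -0.45 and -0.37. With 1 library left out, Hspa1b passed in 1 of 4 fits, that without WT replicate 1, and Hsp90aa1 in 2 of 4, those without WT replicate 1 or MKRN1-null replicate 2. Of 8 mitochondrial chaperones and proteases 0 were called by limma at an adjusted p under 0.05, and their median was -0.16.

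Of the 14 genes that passed in liver and were named by the rule, which leaves out Psph and Pck2, 7 still passed under median-of-ratios scaling. All 14 kept a negative sign, but they were picked by their differences in the main fit, so this is no test. The scaling moved the median of all genes only from -0.17 to 0.0043, and Slc1a5 could be called only as lower. Without MKRN1-null replicate 2, 52 genes passed in place of 2106 and 0 of the 14, with adjusted p from 0.0548 to 0.227. Leaving out any other single liver library also lowered the calls, among all genes as well as among the 14.

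**Figure D4:**
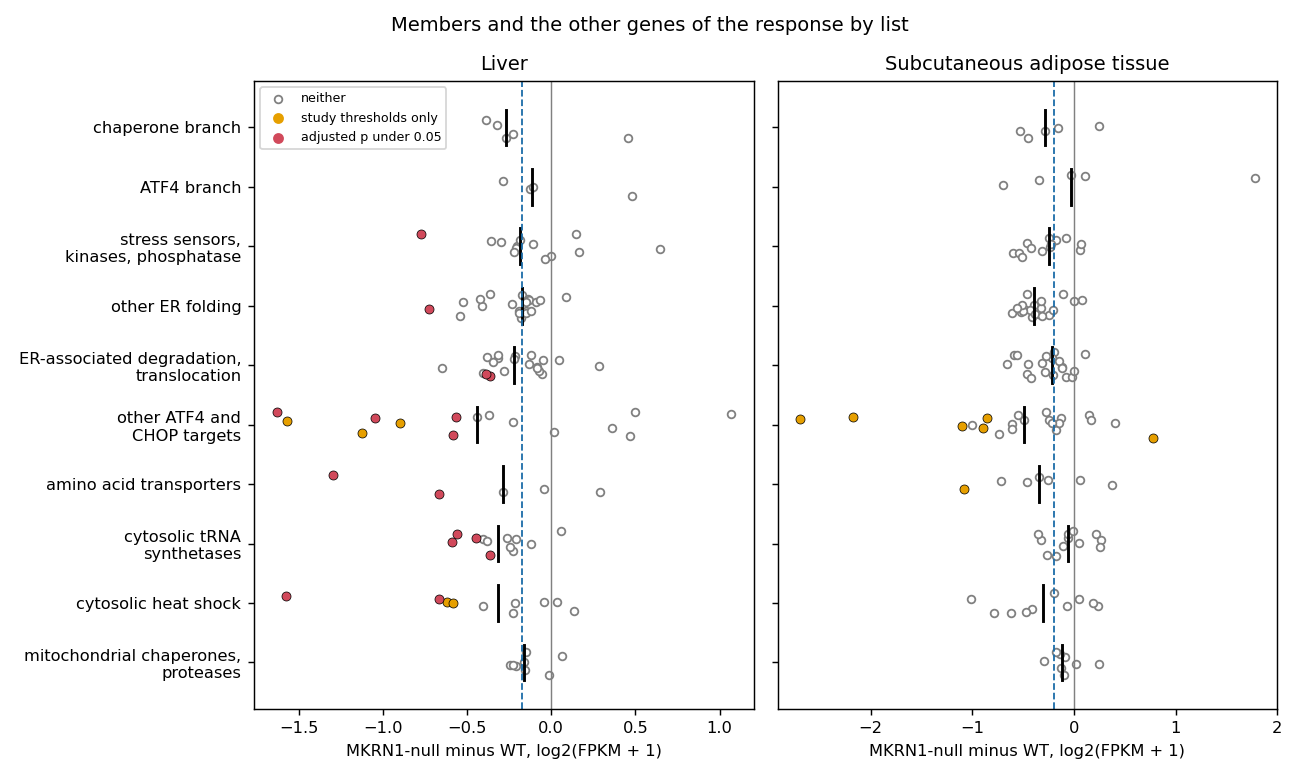
MKRN1-null minus WT in log2(FPKM + 1) for each tested gene of the members' branches and of 8 further lists, in liver (left) and subcutaneous adipose tissue (right), on axes of different width. Red points passed an adjusted p under 0.05, orange points the study thresholds alone and open points neither. Black bars are list medians and the dashed line is the median of all genes. The 9 tested members in liver are all open, while 4 genes of the other ATF4 and CHOP targets are red on the left.

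In adipose tissue these lists held calls at the study thresholds alone. Of 21 other ATF4 and CHOP targets tested, 1 passed as higher and 5 as lower, beside 0.707% and 5.36% of all genes, with a median of -0.49 beside -0.20 for all genes. Atf3 was at 66.5 and 15.3 FPKM in WT and at 6.46 and 2.52 in MKRN1-null libraries, a difference of -2.69 ± 0.78 (SE, limma adjusted p = 0.680). Ddit4 was at 89.1 and 74.9 FPKM in WT and at 34.5 and 8.49 in MKRN1-null libraries, a difference of -2.17 ± 0.66 (SE, limma adjusted p = 0.680). Both MKRN1-null libraries were below both WT libraries, but the levels within each genotype differed by more than a factor of 2 for Atf3. The 1 higher gene was Gpt2 (0.78) and the last of the 5 lower genes Cth (-0.85), both named after their values were seen. Gdf15, a stress hormone, and Cebpb, a transcription factor of the stress response and of adipocyte differentiation, were at -1.11 and -0.90. Gdf15 reached the filter only through the WT libraries, so it could pass only as lower. With either WT library left out it was not tested. Slc3a2, the heavy chain of amino acid exchangers, was at 89.2 and 93.4 FPKM in WT and at 49.5 and 36.7 in MKRN1-null libraries, a difference of -1.08 ± 0.28 (SE, limma adjusted p = 0.680). Atf3, Ddit4, Gdf15, Cebpb and Slc3a2 were named by a rule that requires both MKRN1-null libraries on the same side of both WT libraries. That MKRN1-null replicate 1 was also below both WT libraries follows from this rule. Atf3 did not pass without MKRN1-null replicate 2 (-2.15), Cebpb and Slc3a2 did not without either WT library, and Cebpb did not after median-of-ratios scaling (-0.65). The 20 other ER folding genes had a median of 0.01 in MKRN1-null replicate 1 and of -0.78 in replicate 2, against the WT mean.

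Whether the effect of the deletion differed between the tissues was tested as the interaction of tissue and genotype in 9917 genes that reached the filter in both. By limma 0 of 9 members and 0% of all genes passed an adjusted p under 0.05, and at an unadjusted p under 0.05 there were 766 genes and 0 members. The interaction was largest for Chac1, at -2.06 with a 95% interval from -6.48 to 2.35, and for Trib3, at 0.83 with one from -0.11 to 1.77. Trib3 was higher in MKRN1-null liver by 0.48 and lower in MKRN1-null adipose tissue by 0.35, neither called. For the other 7 members it lay between -0.23 and 0.59. The interval of Hspa5 ran from -1.13 to 1.65 and that of Hsp90b1 from -1.01 to 1.13. Without MKRN1-null adipose replicate 1, Chac1 was called at -4.42 (limma adjusted p = 0.000866), as were 2645 of the 9871 genes then tested.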

How the data were processed

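The study had sequenced poly(A) RNA from liver and from subcutaneous fat. The authors deposited 1 StringTie file per library, with FPKM, TPM and coverage of 36780 transcripts, estimated for a fixed annotation and scaled to depth. The submitters' processing notes name HISAT2, SAMtools and StringTie 1.3.3b on mm10 (no version is given for the first 2 tools), whereas the study's methods describe other tools. Read counts were not used here, so no count model was run.

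Transcript FPKM was added up per gene, named through RefSeq by gene ID (24462 of 24532 IDs had a symbol). Genes at 1 FPKM or more in 2 or more libraries of the comparison were tested by limma 3.58.1 in R 4.3.3 (lmFit, eBayes with trend) on log2(FPKM + 1) with a pseudocount of 1, and p was adjusted over all genes tested by the Benjamini-Hochberg method. Fold changes on this scale understate those of scarce genes. Depth was obtained by dividing coverage by FPKM, for read pairs of 202 bases. It limits scarce genes, which are given as values. The procedure was tested on simulated data. The study thresholds apply the P and fold limits of the study's methods to limma's p, without its permutation procedure.

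The members, lists, tests and alternatives were chosen with earlier results of these data known. Named genes are all members, Mkrn1, Ern1, Xbp1, Atf6, Eif2ak3 and Ppp1r15a, and of each further list up to 4 with the largest change in a tissue, past either criterion and with groups that do not overlap. Alternatives were a pseudocount of 0.1, TPM, no filter, a filter at 5, other scalings, a fit without trend, a block by replicate number, 1 fit for all 8 libraries, leaving out each library, and, in adipose tissue, rescaling without the muscle markers. B, plasma and T cell markers summed to 3.59 to 14.9 FPKM in the 8 libraries, and pancreas acinar markers to 10.5 to 90.2, with 6 or 7 of 8 at 0. Tables were made with pandas 2.3.3 and numpy 2.4.6 in Python 3.11.15, and figures with matplotlib 3.10.9.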

Additional observations from a re-analysis of the deposited data

How the results depend on the processing

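For the counts of members called, most alternatives kept the result. At an adjusted p under 0.05 no alternative called a member in liver. At the study thresholds in liver, median-of-ratios scaling called 1 (Herpud1), and leaving out a library gave 0 to 3. In adipose tissue, TPM, no filter, no trend and rescaling without the muscle markers each called 1 member at the study thresholds (Ddit3), and leaving out a library gave 0 to 7 there and 0 to 10 at an adjusted p under 0.05. The interaction gave 0 to 1 with a library left out (Chac1, without MKRN1-null adipose replicate 1), and WT tissue 5 to 8. The replicate numbers were not shown to pair the libraries. The deviations of same-numbered WT and MKRN1-null libraries correlated across genes at 0.0067 in liver and 0.11 in adipose tissue. Those of same-numbered liver and adipose libraries correlated at 0.060 in WT and 0.065 in MKRN1-null mice. With the replicate number as a block, adipose tissue had 421 genes and 1 member called by either criterion (Chac1, adjusted p = 0.000995), in a fit whose prior degrees of freedom were infinite, so that a gene's own spread did not enter. The block also put 1 member past the study thresholds in the interaction (Trib3, 0.83, adjusted p = 0.696), and no other count of members moved.

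Signs turned for small differences. In liver, Atf4 and Ddit3 were at 0.082 and 0.085 with median-of-ratios scaling and at 0.054 and 0.086 with quantile normalization. In adipose tissue, Pdia4 was at 0.089 and 0.0087 and Asns at 0.21 and 0.15 under the same pair, and Asns at 0.034 without the muscle markers. With a library left out, liver values ran from -0.77 to 0.23 for Hspa5, -0.46 to 0.0039 for Hsp90b1, -0.50 to 0.25 for Atf4, -0.48 to 0.26 for Ddit3 and -0.59 to 0.0099 for Chac1. Adipose values ran from -0.73 to 0.15 for Hsp90b1, -0.52 to 0.22 for Pdia4, -0.26 to 0.76 for Herpud1, -0.19 to 0.41 for Atf4, -0.50 to 0.44 for Asns and -0.57 to 4.13 for Chac1. Mkrn1 in liver was at -1.61 (adjusted p = 0.0098) and, without MKRN1-null replicate 2, at -1.48 (adjusted p = 0.0548). Scalings that centre the libraries moved the median of all genes from -0.17 to 0.0043 in liver and from -0.20 to 0.012 in adipose tissue. The cause of each turn was not tested. With 2 libraries per group, an absent call does not show that a gene was unchanged.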
